A study of Mus musculus with 2 samples.

Results

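The miRNAs described here are late entries of the miRNA registry, mouse miR-6336 to miR-6418 and miR-8090 to miR-8120. They were chosen by their number alone. Of the 1881 miRNA names on the array, 117 belonged to these blocks, 86 to the lower block and 31 to the upper block. Every number of both blocks was on the array: the lower block covered 83 numbers, 3 of them with both arms, and the upper block 31 numbers with 1 name each. The samples were exosomes, small membrane vesicles that cells release, collected from medium of the mouse Lewis lung carcinoma line (LLC). After growth with serum these cells spent 24 h without it in the presence of 5 µM cisplatin, which crosslinks DNA. Independent experiments gave 2 samples of 1 group, and each was run on a one-colour (Cy3) array of its own. Both samples had the drug, no untreated sample was analysed here, and all RNA came from 1 cell line.

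A miRNA is a short RNA that is cut from 1 arm of a hairpin precursor and loaded into an Argonaute protein, where it guides the repression of mRNAs. Target choice rests mainly on the seed, bases 2 to 8 from the 5′ end. The registry gives numbers in order of submission, so high numbers mark late entries, which came largely from small RNA sequencing. Many of them are known from 1 species and as 1 mature product, and for most little is known of their function.

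The sequences shown first are those of members that gave a signal on both arrays, because their makeup is referred to below. RefSeq (build GRCm38.p6) gave a mature sequence for 101 of the 117 members, 72 in the lower block and 29 in the upper. Capitals mark the seed.
miR-6354: uGCCCUGGggaucaggucucu
miR-6366: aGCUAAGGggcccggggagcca
miR-6368: cUGGGAAGcaguggaggggag
miR-6385: gCAAGGAUgacagagaggaag
miR-6392-3p: gACGCAGGuuugccggguccucu
miR-8090: gAAGCGCAguggaggucugu
miR-8095: aAAGGAUUcugcugucuguccc
miR-8101: gGCGAGCGgagccggaggagcc
miR-8102: uCACGCGGgggaacgaggaaga
miR-8103: uCUCCUGUucucuguucuccc
miR-8105: aGGCGACUggcgagacccgaag
miR-8110: aAGCGUGGauugggggggggg
miR-8117: gCUCGUGUggaacagaagggg
miR-6360, miR-6378 and miR-6388 were also detected on both arrays and had no entry in that table. The 18 detected members with a sequence had 18 different seeds, so none of these shared a seed with another. The seeds of detected members without a sequence could not be compared.

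A miRNA was called detected on an array where the total of at least 1 of its probes exceeded its own error by a factor of 3, which is how the scanner software sets the flag. In the lower block 8 of 86 members were detected on both arrays (9.3%), and in the upper block 8 of 31 (25.8%). The background was 10.7% of all 1881 miRNAs. The lower block thus lay near the background and the upper block above it. This gap was not tested, because members are not replicates of a condition. On array 1 alone the counts were 12 of 86 (14%) and 9 of 31 (29%), against a background of 16.6%. On array 2 alone they were 8 of 86 and 9 of 31, against 10.7%. In the lower block 4 members were lost from array 1 to array 2 and none was gained. In the upper block 1 was lost and 1 was gained. Over all miRNAs 111 of the 312 detected on array 1 were lost and 1 was gained, so the lower block's 4 of 12 was near the share of the whole array. Of the late arms from miR-6896 to miR-7094, 21 of 201 5p arms (10.4%) and 15 of 199 3p arms (7.54%) were detected on both arrays. Under a stricter rule, with the majority of spots well above background on both arrays, 4 members of the lower block (4.65%) and 3 of the upper block (9.68%) remained, against 4.68% of all miRNAs. With every probe required to pass, the counts were 5 (5.81%) and 5 (16.1%), against 6.17%.

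**Figure D1:**
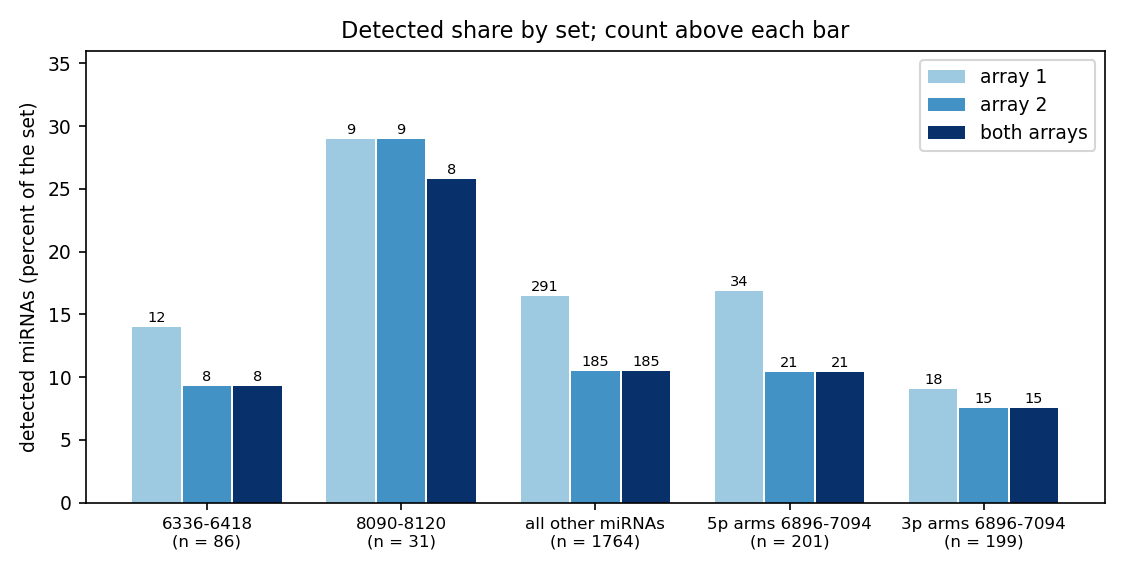
The bars give the percent of miRNAs detected on array 1, on array 2 and on both arrays, by set, with the count above each bar. The set of all other miRNAs includes the arms from miR-6896 to miR-7094. The upper block stood at 25.8% on both arrays, the lower block at 9.3%.

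The brightest members came from both blocks. miR-8110, whose 3′ end is a run of 10 G, had a log2 processed intensity of 9.27 on array 1 and 8.58 on array 2, before any scaling between arrays. miR-8117 had 9.39 on array 1 and 7.40 on array 2. miR-6366, which holds runs of 4 G, had 9.29 and 7.93. miR-6360 had 7.59 and 6.49. These 4 members were the ones with a mean log2 intensity of 6 or more, out of 38 such miRNAs on the array. Brightness depends on the probe, so the order of these values is not an order of amounts.

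The next members were dimmer by far. miR-6385 had 6.03 on array 1 and 4.13 on array 2, and miR-8090 had 5.95 and 4.48. Of the rest detected on both arrays, the values lay between 3.0 and 4.6 on array 1 and between 2.77 and 4.57 on array 2. These are close to a limit set from the negative-control spots (3 SD above their mean), which was 2.92 on array 1 and 3.29 on array 2. For miR-6354, miR-6378 and miR-8105 the value averages a detected probe with 1 that was undetected on both arrays. Their detected probes alone were brighter. On arrays 1 and 2 these had 4.65 and 4.40 (miR-6354), 7.28 and 5.37 (miR-6378), and 5.30 and 6.70 (miR-8105). miR-6354 (3.0 and 2.92), miR-6378 (3.72 and 2.77) and miR-8102 (4.22 and 3.04) lay under that limit on array 2 by this mean of log2 values. By the mean of their linear intensities all 16 members detected on both arrays passed it on both. The most marginal call was miR-6388, whose better probe stood at 3.01 times its error on array 1 and at 4.16 times on array 2.

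Once detected, the blocks had similar signals. The median log2 intensity of detected members was 4.33 in the lower and 4.49 in the upper block on array 1, and 3.96 and 4.09 on array 2. Over all 201 miRNAs detected on both arrays it was 4.56 and 3.82. Undetected members lay at the floor. The median of the 74 members of the lower block detected on neither array was 0.32 on array 1 and 0.32 on array 2, and for the 21 of the upper block it was 0.27 and 0.19. The undetected members nearest to detection in the lower block were miR-6402 (2.71 on array 1 and 2.66 on array 2), miR-6407 (2.28 and 2.45) and miR-6352 (2.25 and 2.20). In the upper block they were miR-8113 (1.17 and 1.24), miR-8112 (1.5 and 0.77) and miR-8114 (1.31 and 0.84). The nearest numbers on the array outside the lower block were miR-6335 and miR-6419, and those outside the upper block, much farther off, were miR-7689 and miR-9768 with both arms each. All were detected on neither array, with log2 intensities of 0.60 or less.

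**Figure D2:**
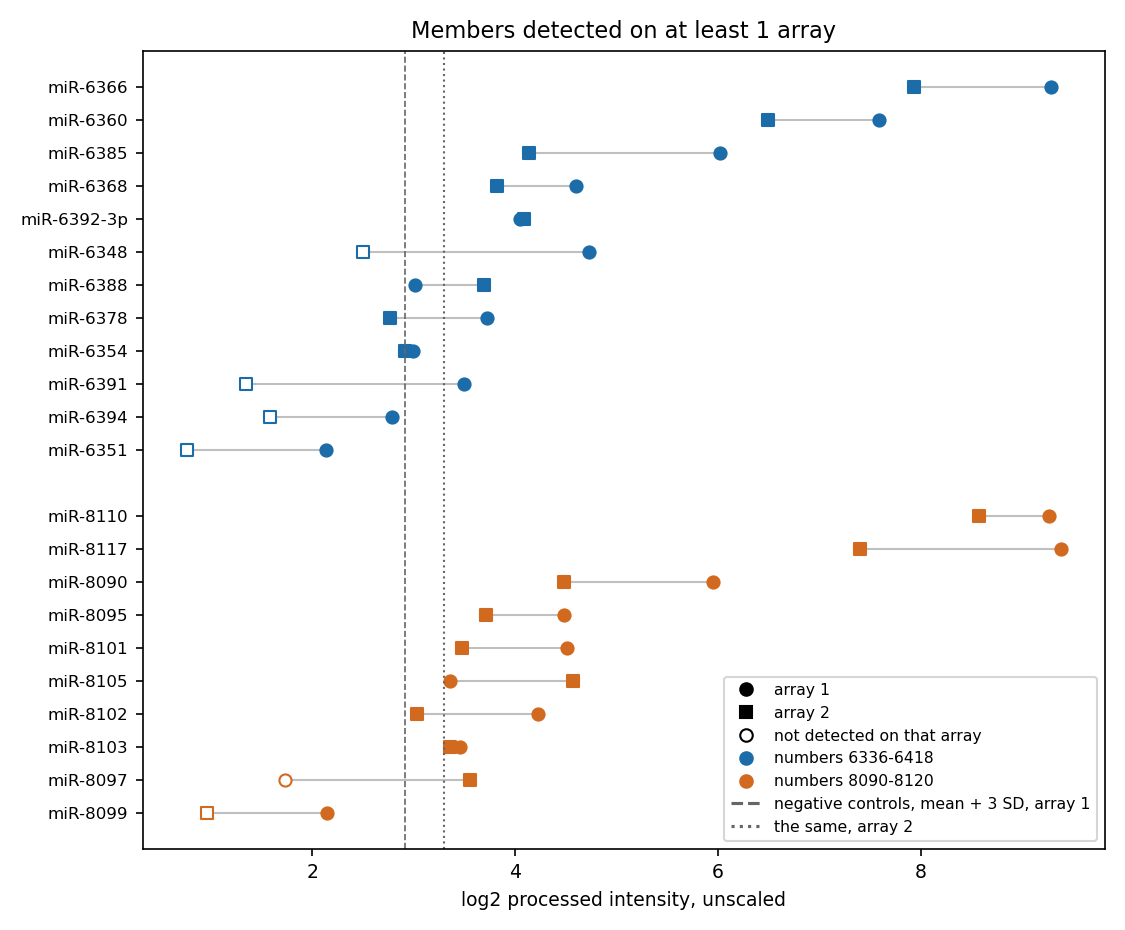
Each line is 1 of the 22 members detected on at least 1 array, with its unscaled log2 processed intensity on array 1 (circle) and array 2 (square). Open symbols are signals below detection, and the vertical lines are the negative-control limits of 2.92 and 3.29. The top 4 members stand clear of the rest. miR-6388, miR-8097 and miR-8105 lie higher on array 2, and so, by little, does miR-6392-3p (4.05 and 4.09). For miR-6388 this turns round with the total listed per miRNA, 1 of 13 alternative ways of processing.

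Before scaling, 13 of the 16 members detected on both arrays were brighter on array 1, 6 of 8 in the lower block and 7 of 8 in the upper. The background for this was 87.1% of the 201 detected miRNAs. The median difference, array 1 minus array 2, was 0.86 log2 units in the lower block (range -0.68 to 1.89) and 0.90 in the upper (range -1.21 to 1.98). Over all 201 it was 0.78. The blocks therefore differed from each other by 0.04 in this median, far less than the range within either. The spike-in controls above detection, 4 in number, were brighter on array 1 by 0.06 to 0.27. Scaling each array to its 75th percentile over the detected miRNAs removed 1.71 log2 units between the arrays. After it miR-6385 and miR-8117, 2 of the 16 members, stayed brighter on array 1, against 24.9% of the 201, and the block medians became -0.85 and -0.81. After scaling 3 members of each block were over 2-fold apart, against 48.8% of the 201. They were miR-6354, miR-6388, miR-6392-3p, miR-8103, miR-8105 and miR-8110, all lower on array 1, where the background was 47.8%. Which array was the brighter thus depends on the scaling for most members, and with 1 group a difference between arrays is a difference between samples treated alike.

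Over 2-fold brighter on array 1 before scaling were 3 members of the lower block and 4 of the upper, against a background of 42.3% of the 201. Of the lower block, miR-6385 differed by 1.89 log2 units (3.71-fold), miR-6366 by 1.35 (2.56-fold) and miR-6360 by 1.1 (2.14-fold). Of the upper block, miR-8117 differed by 1.98 (3.95-fold), miR-8090 by 1.47 (2.77-fold), miR-8102 by 1.19 (2.28-fold) and miR-8101 by 1.03 (2.04-fold). miR-8110, about as bright as miR-8117 on array 1, differed by only 0.69 (1.61-fold). miR-6378 (0.95), miR-6368 (0.78) and miR-8095 (0.77) differed by less than 2-fold. miR-8103 (0.10), miR-6354 (0.08) and miR-6392-3p (-0.04) differed by no more than the spike-in controls. Scaled mean signals with their SD over the arrays were 8.92 ± 0.73 for miR-8110, 8.61 ± 0.25 for miR-6366, 8.39 ± 0.19 for miR-8117 and 7.04 ± 0.44 for miR-6360 (SD, n = 2). These SDs depend on the scaling. Unscaled, they were 0.49 for miR-8110, 0.96 for miR-6366, 1.40 for miR-8117 and 0.78 for miR-6360, so miR-8117 went from the smallest to the largest.

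**Figure D3:**
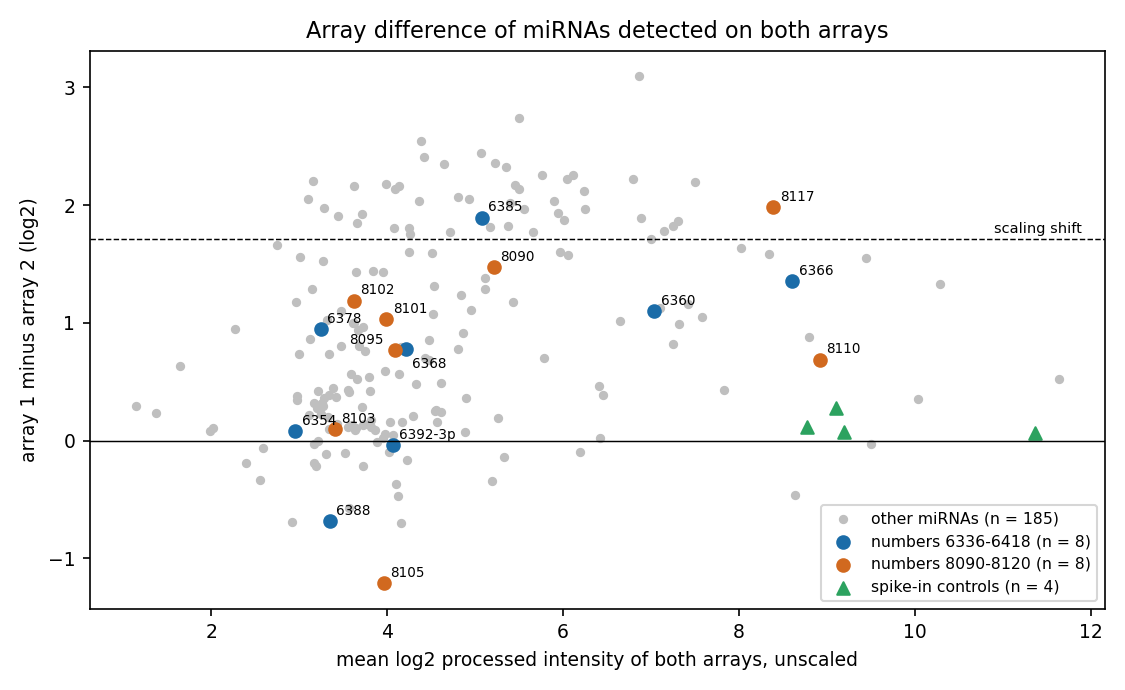
Each point is 1 of the 201 miRNAs detected on both arrays or 1 of 4 spike-in controls, with the mean unscaled log2 intensity on the horizontal axis and array 1 minus array 2 on the vertical axis. The dashed line is the 1.71 removed by scaling. The members spread through the cloud of other miRNAs, and miR-8105 at -1.21 is the lowest point.

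A few members went the other way before scaling. miR-6388 of the lower block had 3.01 on array 1 and 3.69 on array 2, a difference of -0.68, and its probes differed by -0.73 and -0.63. Of 13 alternative ways of processing, 1 gave the other sign. With the total listed per miRNA, miR-6388 was brighter on array 1, by 1.86 after scaling. Its log2 values in the authors' deposited table were -2.26 on array 1 and 2.89 on array 2. A pair of upper-block members differed by more before scaling. miR-8105 had a log2 intensity of 3.36 on array 1 and 4.57 on array 2, a difference of -1.21, the lowest of the 201 miRNAs detected on both arrays. It was the only one of the 201 that was over 2-fold brighter on array 2 before scaling. miR-8097 was detected on array 2 alone, with 1.73 on array 1 and 3.55 on array 2. No other of the 1881 miRNAs was detected on array 2 and not on array 1. Its better probe stood at 1.76 times its error on array 1 and at 4.10 times on array 2. Its difference of -1.82 was the lowest on the array, where 3 names in all were over 2-fold brighter on array 2, but its value on array 1 lies below detection and gives the difference no firm size. The probes of miR-8105 had 5.30 and 1.42 on array 1 and 6.70 and 2.45 on array 2, the dimmer one below detection on both. Those of miR-8097 had 1.45 and 2.01 on array 1 and 3.65 and 3.45 on array 2. In the authors' deposited table, miR-8105 had log2 values of 2.61 and 4.91, and miR-8097 had the table's lowest value, -3.32, on array 1 and 2.76 on array 2.

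The members detected on array 1 alone were miR-6348, miR-6351, miR-6391, miR-6394 and miR-8099, 5 of the 117, against 111 of all 1881 miRNAs. miR-6348 was the brightest of them, with 4.73 on array 1 and 2.50 on array 2, and both of its probes passed on array 1. miR-6391 had 3.50 and 1.34, again with both probes on array 1. miR-6394 (2.78 and 1.58), miR-6351 (2.13 and 0.76) and miR-8099 (2.14 and 0.96) passed through 1 probe each.

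Each detected member was read by 2 probes with 15 spots each, and these probes did not always give the same picture. Over the members detected on both arrays, 10 of 16 had both probes detected on both arrays, 5 in each block. For all 201 miRNAs the number was 116. For miR-6378, 1 probe gave 7.28 on array 1 and 5.37 on array 2, and the other 0.16 and 0.17. miR-6354 had 4.65 and 4.40 with 1 probe and 1.34 and 1.44 with the other. In both, as in miR-8105, the dimmer probe was below detection on both arrays, so the gap has no firm size. miR-8117 was bright in both probes although they differed by 1.71 and 1.49. The probes of miR-8110 differed by 0.27 and 0.24, and those of miR-6385 by 0.09 and 0.12. Spots of 1 probe mostly varied little where the signal was high, with a median SD of 0.06 log2 units for probes over 6. The range there was 0.03 to 0.45. For dimmer detected probes the median SD was 0.32, with a range of 0.14 to 0.51, so the ranges overlapped.

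**Figure D4:**
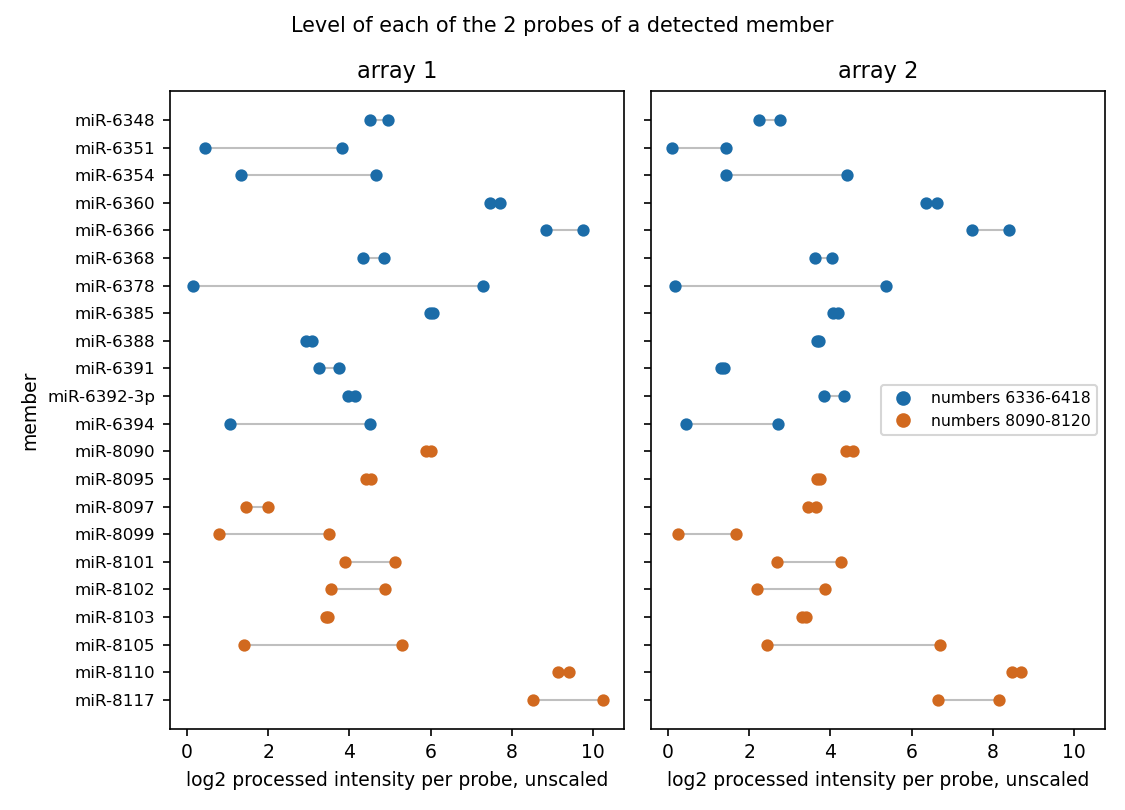
Each pair of points joined by a line gives the unscaled log2 intensity of both probes of 1 of the 22 members detected on at least 1 array, with array 1 on the left and array 2 on the right. miR-6378, miR-8105 and miR-6354 show wide gaps on both arrays, with the dimmer probe below detection, and miR-8110 and miR-6385 narrow ones.

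The median G share of members detected on both arrays was 45% over the 13 with a sequence, against 28.6% for the 83 members with a sequence detected on neither array. In the lower block alone it was 42.9% (5 members) against 27.3% (63 members). In the upper block it was 45.2% (8 members) against 35.7% (20 members), a narrower gap. Among all other miRNAs the medians were 30.8% for those detected and 25% for those detected on neither array. Not all detected members held much G: miR-8095 had a G share of 22.7%, and miR-8103, which is mostly C and U, of 9.52%. The upper block held more G from the outset, with a median of 42.9% against 28.9% in the lower block. Among miRNAs with a G share of at least 40%, 6 of 16 members of the upper block (37.5%), 3 of 12 of the lower block (25%) and 52 of 288 other miRNAs (18.1%) were detected on both arrays. In the lower block 0 of 13 members with a G share under 20% and 0 of 24 between 20% and 30% were detected on both arrays. For the other miRNAs these counts were 47 of 472 (9.96%) and 25 of 439 (5.69%). The upper block had 1 of 5 in each of these ranges, too few members to set against the lower block. Between 30% and 40% it had 0 of 3, the lower block 2 of 23 (8.7%) and the other miRNAs 31 of 308 (10.1%). The motif GGGG was searched on the strand of the mature miRNA. It stood in 11.3% of all 1608 miRNAs with a sequence and in 20.8% of those detected on both arrays. Of the 13 detected members 6 held it (46.2%), against 18.7% of the other detected miRNAs. They were miR-6354, miR-6366, miR-6368, miR-8102, miR-8110 and miR-8117. Of the 16 members with this run, 6 were detected on both arrays, and of the 85 without it, 7 were. For the other miRNAs the counts were 29 of 166 (17.5%) with the run and 126 of 1341 (9.4%) without it. G share was also set against mean unscaled log2 intensity, over all members with a sequence, detected or not. Pearson and Spearman correlations were 0.30 and -0.03 over the 101 members, and 0.10 and -0.17 over the 1507 other miRNAs. The part of base composition in the signal was not tested.

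Several members of the lower block begin like well-known miRNAs, and 4 such pairs differed widely in signal. They are shown because the leading bases are identical while the signals are not. These pairs were picked after their values were seen. Capitals here mark the leading bases that a pair shares.
miR-6389: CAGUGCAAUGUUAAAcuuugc
miR-130a-3p: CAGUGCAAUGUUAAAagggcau
miR-6369: UGGCUCAGUUCAGuguuggugag
miR-24-3p: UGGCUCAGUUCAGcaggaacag
miR-6367: UCCCUGAGACCCUgguucagga
miR-125b-5p: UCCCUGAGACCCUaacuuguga
miR-6353: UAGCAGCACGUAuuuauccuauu
miR-16-5p: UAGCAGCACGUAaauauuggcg
miR-6389 shares its first 15 bases with miR-130a-3p. It had a log2 intensity of 0.33 on array 1 and 0.54 on array 2, where miR-130a-3p had 7.16 and 4.94. miR-6369 shares 13 with miR-24-3p and had 0.42 and 0.38, where miR-24-3p had 7.30 and 5.17. miR-6367 shares 13 with miR-125b-5p and had 0.30 and 0.25, where miR-125b-5p had 6.84 and 5.27. miR-6353 shares 12 with miR-16-5p, a regulator of cell cycle genes, and had 0.82 and 0.97, where miR-16-5p had 5.06 and 3.45.

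Other members also shared a seed with a miRNA outside the blocks, and some starts were as long as in pairs above. miR-6342 shared its first 13 bases with miR-6419, and both were undetected. Their log2 intensities were 0.35 and 0.32 on array 1, and 0.37 and 0.16 on array 2. miR-6341 shared 12 with miR-130b-3p and had 0.37 and 0.46, where miR-130b-3p had 3.42 and 1.38. In the lower block 23 of the 72 members with a sequence shared a seed with a miRNA outside the blocks, the pairs above included, and in the upper block 5 of 29. For 13 members, all of the lower block, such a partner was detected on both arrays. Of these 13, 11 were detected on neither array, with log2 intensities of 0.02 to 0.82 on array 1 and 0.07 to 0.97 on array 2. That share was near the background, since 1568 of all 1881 miRNAs and 95 of the 117 members were detected on neither array. Their partners included members of the miR-130, miR-15/16, miR-125, miR-24 and miR-17 seed families. miR-6394, with the seed of miR-125b-5p, was detected on array 1 alone. miR-6368, which shares its seed but not its first base with miR-3547-5p, was the only one detected on both arrays, with 4.6 and 3.82. miR-3547-5p had 3.56 and 2.38.

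**Figure D5:**
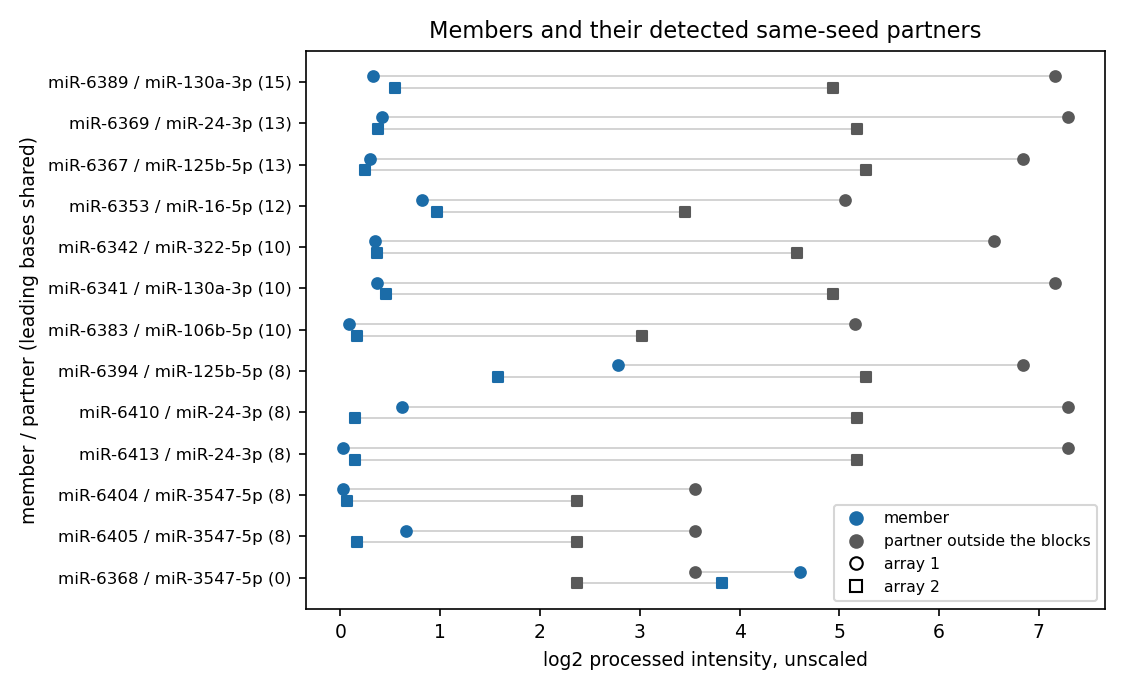
Each row is 1 of the 13 members and its closest same-seed partner that was detected on both arrays, with the number of identical leading bases in parentheses. Points give unscaled log2 intensity on array 1 (circles) and array 2 (squares). Undetected partners were left out, so a partner with signal in every row follows from that choice. In 11 rows the member lies under 1 while its partner lies above 2, and this share of undetected members is near the background.

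The detected members came from several chromosomes, with loci given here in GRCm38.p6, and some lay on the same one. miR-8101, miR-8102 and miR-8103 are all on chr11, with miR-8102 at chr11:97744974-97744995 and miR-8103 at chr11:97063829-97063849. miR-6348, miR-6351 and miR-6354 are all on chr1, with miR-6348 at chr1:168490740-168490761 and miR-6354 at chr1:169019041-169019061. miR-8110 lies at chr8:89024791-89024811 on the plus strand and miR-6366 at chr16:18165093-18165114 on the minus strand, and the table lists no other gene over either. miR-8117 lies at chr5:50252823-50252843 on the plus strand, within the lncRNA gene Gm40301. miR-6385 lies at chr9:58221155-58221175 on the plus strand, within Pml, which encodes the scaffold protein of PML nuclear bodies. miR-8090 lies at chr19:47755062-47755081 on the minus strand, within Cfap43, a gene of cilia and flagella. miR-8105 lies at chr10:128458732-128458753 on the plus strand, in no other RefSeq gene. miR-8101 lies within Hdac5, a histone deacetylase gene, miR-8095 within the diacylglycerol kinase gene Dgkg, miR-6392-3p within the lipid droplet gene Pnpla3, and miR-8103 within Osbpl7. Of members with a locus, 46 of 72 in the lower block and 22 of 29 in the upper lay within an annotated gene. The table used has no gene strands or exons, so exonic and intronic positions were not set apart. Of the 13 members detected on both arrays with a sequence, 4 lay on the 5′ side of their hairpin and 9 on the 3′ side. By block these were 2 and 3 in the lower and 2 and 6 in the upper, and over all members placed on a hairpin 48 and 47.

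Of 58594 spots on an array, 56430 were for miRNAs, and 3510 of those for these members, 30 spots for each member. No spot was saturated. Of the members' spots, 44 on array 1 and 45 on array 2 were outliers and were left out. Lists of 7 miRNAs typical of epithelium and 4 typical of red cells were looked up, and 0 of either list were detected on either array. The background was 16.6% of all miRNAs on array 1 and 10.7% on array 2, so lists this short do not check the labelled cells. The number of arrays, 2, limits the precision of every value.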

How the data were processed

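Exosome RNA of 2 samples of 1 group was profiled on one-colour arrays. A cRNA labelling kit is named per the labels' protocols, but a miRNA scanner protocol per the file headers. Each deposited scanner file gives linear intensity values by spot. The submitters' processing notes name Agilent Feature Extraction 10.7.1.1, and per the file headers the background was removed within an array, with detrending, without normalization across arrays. Totals with errors and flags (other values of 0 or 1) are deposited beside them. A deposited table of the authors' log2 values was an alternative. Its columns hold the same values in sorted order, and the median of each is its lowest value, -3.32. Its centring and normalization are not stated.

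Members were found by number, and population-outlier spots were dropped. Processed intensity was floored at 1, put on a log2 scale and averaged by spot, then by probe, to give a miRNA's level. For scaled values the 75th percentile over miRNAs detected on both arrays was subtracted (6.29 and 4.58) and the mean of both added back. Every member detected on at least 1 array is named, with the 3 highest undetected members of each block and the nearest numbers outside. Members and lists were chosen with earlier results of these data known. No test was run, since there is 1 group, and both arrays shared 1 slide and 1 scan. Alternatives covered detection rules, background correction, scaling, floor, probe and spot summaries. Sequences, loci and gene overlaps came from RefSeq tables of GRCm38.p6. The tools were limma 3.58.1 in R 4.3.3 and, in Python 3.11.15, numpy 2.4.6, pandas 2.3.3 and matplotlib 3.10.9. The level step was tested on simulated data that had no differences between probes, and without the floor of 1. The check on scaled values compared raised with unchanged miRNAs, where a shift between arrays cancels, so it could not test the scaling.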

Additional observations from a re-analysis of the deposited data

How the results depend on the processing

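Detected members fell from 8 to 4 in the lower block and from 8 to 3 in the upper, 7 in all, under a rule that most spots be flagged well above background, and to 5, 5 and 10 when every probe had to pass. Leaving out 1 array gave 8 to 12, 9 to 9 and 17 to 21. The median scaled level of detected members was 4.14 in the lower and 4.04 in the upper block. Normexp with an offset of 50, which is added before log2, gave 6.40 and 6.38, and the brightest probe gave 4.99 in the upper block. Leaving out 1 array gave 3.47 to 4.81 and 3.64 to 4.95. The median scaled array difference, -0.85 and -0.81, was 0.86 and 0.90 without scaling, 0.52 and 0.56 with the percentile over all miRNAs, and -0.22 and -0.0624 with quantile normalization. With the total listed per miRNA it was 0.68 and -0.11. It was -0.0648 in the upper block of the authors' table, and -1.70 and -1.59 over all members, most of them undetected. Of the 16 members detected on both arrays, 13 had a difference of the other sign under at least 1 alternative, and miR-6392-3p, miR-8105 and miR-8117 kept theirs under all. Among those over 2-fold apart after scaling, the sign changed for miR-6354 (0.0784 unscaled, 0.21 with the listed total), miR-6388 (1.86 with the listed total), miR-8103 (0.10 unscaled) and miR-8110 (0.69 unscaled, 0.34 with the percentile over all miRNAs, 0.14 with the listed total). Beyond what the change of scale itself does, the cause was not tested. The other 61 block values, of 81, stayed within 1.5 times the count or 1 SD. Some of these had no room to move. Scaling adds the mean percentile back, so the median level is the same without scaling and with the percentile over all miRNAs. The SD for the level came from the gap between the arrays, so leaving out 1 array could hardly exceed it. The sum of own detected probes and each probe alone were chosen after seeing the data. No paired analysis was possible because there is 1 group. Signals near the negative-control limits limit what the dim members can show.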
